A study of Mus musculus with 24 samples.

Results

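Messenger RNA of 10 genes that carry glucose into the cell and through glycolysis to lactate was followed in MS03 cells, a murine *Nf2*-/- Schwann cell line, after drugs directed against focal adhesion kinase (FAK, encoded by *Ptk2*). The 10 genes were *Slc2a1*, *Hk1*, *Hk2*, *Gpi1*, *Pfkl*, *Pfkp*, *Aldoa*, *Pgk1*, *Eno1* and *Ldha*. They were taken by exact gene name from a table of 49315 genes, each matched 1 row, and all 10 passed the filter on low counts. Every group, DMSO included, is the same immortalized line, made from a mouse with floxed *Nf2* by infection with Cre, so that all groups share the labelled deletion and the results describe 1 line in culture. Cells received DMSO or 1 drug for 24 hours. Ifebemtinib (IN10018), GSK2256098, VS-4718 and defactinib, which inhibit the kinase, were used at 1 μM, as was the degrader PROTAC FAK Degrader 1, while the degraders GSK215 and BSJ-04-146 (written BSJ-04-0146 in the labels) were used at 0.1 μM. A PROTAC is a molecule that binds its target and an E3 ubiquitin ligase together, so that the target is ubiquitinated and degraded. Each of the 8 groups had 3 libraries that the labels call biological replicates, 24 in all, and whether these were separate cultures is not stated, so *P* values measure the spread between these libraries.

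Glycolysis splits glucose into pyruvate in the cytosol and yields ATP without oxygen, and lactate dehydrogenase then turns pyruvate into lactate and restores NAD+. Glucose enters through facilitative transporters such as GLUT1 (*Slc2a1*), hexokinase and phosphofructokinase commit it to the pathway, and the later enzymes are abundant and mostly reversible. In many cells hypoxia-inducible factors (HIF) raise most of these genes by binding a short core sequence near their start, MYC binds the E-box, and Schwann cells use the lactate they make to feed the axons they wrap.

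Library totals ran from 14472462 counts (GSK215) to 27449516 counts (DMSO), and the 10 genes had 1111 to 60782 counts per library, so counting error was small for each of them. Of 12 Schwann cell markers 8 were above 1 CPM (counts scaled to library size by TMM) with DMSO, among them *Sox10* and *Sox2*, whereas *S100b*, *Egr2* and *Gap43* were among those below it. The same cells held 392 CPM of *Col1a1* and 1350.1 CPM of *Col1a2*, which fibroblasts also make, and 12.4 CPM of *Pdgfra*, so that 3 of 6 fibroblast markers were above 1 CPM, whereas *Dcn* and *Lum* had no count in any DMSO library. The defining markers of macrophages (*Ptprc*, *Adgre1*), endothelial cells and neurons were at or near 0. The summed level of the Schwann cell markers was 126 to 130.2 CPM with DMSO, 118 to 126 with PROTAC FAK Degrader 1, 372 to 385 with GSK215 and 355 to 376 with BSJ-04-146, and it was 208 to 225 with VS-4718, 161 to 168 with defactinib, 159 to 166 with GSK2256098 and 133 to 136 with ifebemtinib. The 6 fibroblast markers summed to 1732 to 1776 CPM with DMSO, 994 to 1008 with PROTAC FAK Degrader 1, 1334 to 1410.2 with BSJ-04-146, 1516 to 1585 with VS-4718, 1581 to 1648 with ifebemtinib, 1631 to 1684 with GSK215, 1761 to 1815 with GSK2256098 and 1767 to 1824 with defactinib. The 6 macrophage markers summed to 3.71 to 4.10 CPM with DMSO and 11.2 to 12.0 with PROTAC FAK Degrader 1, 7.90 to 9.34 with BSJ-04-146, 6.20 to 7.88 with GSK215, 5.20 to 6.21 with VS-4718, 4.58 to 5.28 with defactinib, 4.28 to 4.60 with GSK2256098 and 3.79 to 4.43 with ifebemtinib, *Cd68* being the only one above 1 CPM with DMSO, and the 5 endothelial and 5 neuronal markers stayed below 1 CPM each with DMSO. Where these sums moved with the same drugs as the glycolysis genes, their part in the results was not tested. *Nf2* itself had 2360 to 5066 counts per library, but a count per gene cannot show which exons are missing, so it does not check the genotype.

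The 250 bases before each start were searched for the HIF core, written ACGTG or GCGTG and read on both strands, because most of the genes moved together with several drugs. The windows are those of RefSeq (GRCm38.p6), which lists 16 starts for the 10 genes, and neighbouring starts of *Aldoa* and of *Eno1* share part of their windows. The core stood in 13 of the 16 windows, against 38.6% of all 32851 windows of this length. Sites in shared parts were counted in each window that held them, and 9 of the 10 genes had a core in at least 1 window. The *Eno1* windows at the inner starts were annotated exon over 245 and 250 of their 250 bases. Because windows overlap and HIF is known to raise most of these genes, these counts do not test for enrichment. The letters ACGTG alone, which the longer E-box CACGTG also contains, stood before *Slc2a1*, *Hk2*, *Aldoa*, *Pgk1* and *Ldha*, in 6 of the 16 windows, against 16.6% of all windows. Of the 10 genes *Ldha* alone had the E-box itself, at 2 places in 1 window, and 6.02% of all windows held it. *Gpi1* had no core in its window. *Hk1* had none before its outer start and held GCGTG, on either strand, before its inner start. A match of letters shows neither binding nor a cause of a change. The windows of 3 genes with ACGTG and of the outer *Hk1* start, which lacks the core, are shown from 5′ to 3′ on the strand of the gene, with the core in capitals (CACGT is ACGTG read on the other strand, and CACGTG is the E-box). They lie at chr6:82774455-82774704 (*Hk2*, minus strand), chrX:106186850-106187099 (*Pgk1*, plus strand), chr7:46845554-46845803 (*Ldha*, plus strand) and chr10:62379909-62380158 (*Hk1*, minus strand).
Hk2: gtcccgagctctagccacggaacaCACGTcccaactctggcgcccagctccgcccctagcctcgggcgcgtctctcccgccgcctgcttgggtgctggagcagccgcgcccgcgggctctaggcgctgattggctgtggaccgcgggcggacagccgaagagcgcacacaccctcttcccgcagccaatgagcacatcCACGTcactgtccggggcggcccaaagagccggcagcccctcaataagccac
Pgk1: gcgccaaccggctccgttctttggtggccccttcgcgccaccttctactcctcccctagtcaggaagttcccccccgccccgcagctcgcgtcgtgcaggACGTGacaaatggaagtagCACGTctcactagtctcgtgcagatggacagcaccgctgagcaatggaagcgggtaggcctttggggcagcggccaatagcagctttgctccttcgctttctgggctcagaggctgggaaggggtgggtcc
Ldha: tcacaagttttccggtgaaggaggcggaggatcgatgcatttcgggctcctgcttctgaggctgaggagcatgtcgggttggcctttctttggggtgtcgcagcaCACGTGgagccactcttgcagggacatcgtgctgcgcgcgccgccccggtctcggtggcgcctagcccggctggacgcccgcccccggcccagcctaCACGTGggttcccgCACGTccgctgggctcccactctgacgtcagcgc
Hk1, outer start: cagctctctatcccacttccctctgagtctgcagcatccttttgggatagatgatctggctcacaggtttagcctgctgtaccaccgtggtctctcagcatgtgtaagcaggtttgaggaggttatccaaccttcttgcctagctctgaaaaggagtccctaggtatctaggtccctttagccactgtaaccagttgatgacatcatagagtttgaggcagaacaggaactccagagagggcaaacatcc

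With DMSO the later enzymes were far more abundant than the entry of the pathway. Per kilobase of exon (RPKM, which is TMM-scaled CPM divided by the length of all GENCODE M21 exons of a gene), the level was 772 ± 9.20 for *Pgk1*, 693 ± 5.31 for *Ldha*, 509 ± 5.33 for *Aldoa* and 358 ± 6.07 for *Eno1* (mean ± SD, n = 3). *Gpi1* stood at 116 ± 1.62, *Slc2a1* at 76.2 ± 0.837 and *Pfkl* at 54.3 ± 0.405 RPKM, and the lowest were *Hk2* at 31.9 ± 0.420, *Hk1* at 26.8 ± 0.480 and *Pfkp* at 7.52 ± 0.270. No neighbours in this order overlapped between libraries. The order depends on the length assumed, since with the longest transcript in place of all exons *Ldha* led at 1264 RPKM and *Hk1* (53.4) was above *Hk2* (34.5). Together the 10 genes took 0.900 to 0.903% of all counts with DMSO, 1.02 to 1.06% with ifebemtinib and 1.11 to 1.16% with PROTAC FAK Degrader 1. Their share was 0.773 to 0.796% with defactinib, 0.775 to 0.785% with GSK2256098, 0.658 to 0.683% with VS-4718, 0.637 to 0.658% with BSJ-04-146 and 0.565 to 0.580% with GSK215, and only the defactinib and GSK2256098 libraries overlapped, although those of VS-4718 and BSJ-04-146 met.

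Whether FAK inhibitors and FAK degraders alter the same genes was asked by comparing each drug with the 3 shared DMSO libraries. Glycolysis genes fell with 5 of the 7 drugs, rose together with ifebemtinib and split with PROTAC FAK Degrader 1. A gene was called where the Benjamini-Hochberg adjusted *P* of edgeR's quasi-likelihood test over 16070 genes was under 0.05. GSK215 lowered all 10 genes, where 27.2% of all tested genes were called lower, and their median log2 fold change was -0.77. BSJ-04-146 lowered all 10, against 26.9% of all genes, with a median of -0.62. VS-4718 lowered all 10, against 18.9%, with a median of -0.42. GSK2256098 lowered 9 of 10, against 6.09%, with a median of -0.20, and defactinib lowered 8 of 10, against 11%, with a median of -0.18. Ifebemtinib raised all 10, against 6.44% of all genes called higher, with a median of 0.22. With PROTAC FAK Degrader 1, 5 genes rose and 1 fell, against 34.1% of all genes called higher and 32.7% called lower, so that these counts are less far from the background, and the median was 0.26. The median over all genes tested lay between -0.0044 and 0.021 in these comparisons. With GSK215 4407 genes were called higher and 4379 lower, and scaling by library totals made these 6190 and 2867, while all 10 genes stayed lower. With BSJ-04-146 4451 genes were called higher and 4320 lower, or 6018 and 2966 with library totals, and with VS-4718 3273 genes were called higher and 3030 lower, or 4015 and 2394, and in both 9 of the 10 genes were then lower. In bulk RNA, fewer cells of a type and less RNA per cell cannot be told apart.

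**Figure D1:**
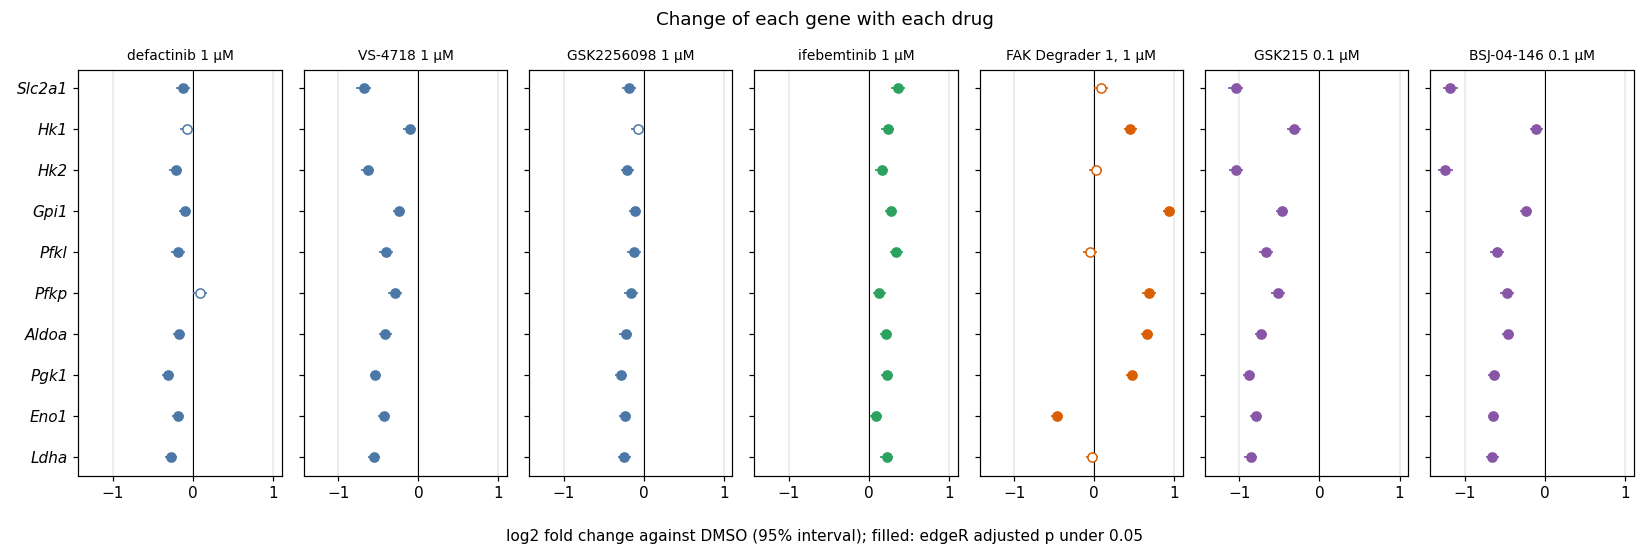
Log2 fold change of each of the 10 genes against DMSO, 1 panel per drug, with genes from glucose uptake (top) to lactate (bottom); points are edgeR estimates from 3 libraries per group, lines their 95% intervals, and filled points have an adjusted P under 0.05. All points lie left of 0 with VS-4718, GSK2256098, GSK215 and BSJ-04-146 and right of 0 with ifebemtinib, and PROTAC FAK Degrader 1 spreads from -0.47 (Eno1) to 0.93 (Gpi1).

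*Slc2a1* and *Hk2*, at the entry of the pathway, had the largest falls of the 10 genes, and these came with the 0.1 μM PROTACs. *Slc2a1* (ENSMUSG00000028645, GRCm38 chr4:119108711-119137983, plus strand) encodes GLUT1, the basal glucose transporter. *Slc2a1* was measured at 270.1, 267 and 264 CPM with DMSO, 231, 246 and 255 with defactinib, 176, 172 and 151 with VS-4718, 231, 234 and 238 with GSK2256098 and 349, 335 and 344 with ifebemtinib. *Slc2a1* stood at 289, 283 and 275 CPM with PROTAC FAK Degrader 1, 126, 131 and 131 with GSK215 and 118, 118 and 118 with BSJ-04-146. No library of any drug overlapped the DMSO libraries, with ifebemtinib highest and BSJ-04-146 lowest. The gene fell to 44.2% of DMSO with BSJ-04-146 (log2 fold change -1.18 ± 0.040 SE, adjusted *P* = 2.9e-25), to 48.4% with GSK215 and to 62.2% with VS-4718 (adjusted *P* = 9.6e-18). Ifebemtinib raised it to 128% (adjusted *P* = 4.1e-09), whereas PROTAC FAK Degrader 1 did not pass the test (0.080 ± 0.037, adjusted *P* = 0.057), although it did pass with scaling by library totals (0.16, adjusted *P* = 1.2e-04), with only the 6 libraries of the comparison (adjusted *P* = 0.018), with thinned libraries (adjusted *P* = 0.04) and without PROTAC FAK Degrader 1 replicate 3 (adjusted *P* = 0.028). The smaller fall with defactinib (-0.13, adjusted *P* = 0.0086) was lost without defactinib replicate 1, at -0.096 and adjusted *P* = 0.09.

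Of 12 other glucose transporters 6 were tested, and 3 met the rule for naming. *Slc2a3* (GLUT3, a high-affinity transporter) fell by 1.00 on the log2 scale with VS-4718, had -0.95 with BSJ-04-146 and rose with PROTAC FAK Degrader 1 (0.82, adjusted *P* = 7.0e-19) and ifebemtinib (0.54). *Slc2a5*, the fructose transporter GLUT5, fell with PROTAC FAK Degrader 1 (-1.41) and with GSK215 (-0.62), and *Slc2a8*, an intracellular transporter, rose with PROTAC FAK Degrader 1 (1.10), GSK215 (0.59) and BSJ-04-146 (0.58). With BSJ-04-146, 3 of the 6 were higher and 2 lower, and with PROTAC FAK Degrader 1 there were 4 and 1. Of all genes tested 27.7% higher and 26.9% lower were called with BSJ-04-146 and 34.1% higher and 32.7% lower with PROTAC FAK Degrader 1. With only 6 genes, the counts of lower transporters do not stand apart from these shares. The median over the 6 was 0.51 and 0.96 with these drugs.

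The paired hexokinases, which trap glucose as glucose 6-phosphate, responded unequally. *Hk1* (ENSMUSG00000037012, chr10:62268855-62379908, minus strand) is the widely expressed form and *Hk2* (ENSMUSG00000000628, chr6:82725025-82774454, minus strand) the inducible one. *Hk1* was measured at 228, 233 and 224 CPM with DMSO, 209, 219 and 220.4 with defactinib, 219.7, 212 and 203 with VS-4718, 214, 214 and 223 with GSK2256098 and 262, 262 and 283 with ifebemtinib. *Hk1* stood at 324, 310.5 and 300.3 CPM with PROTAC FAK Degrader 1, 178, 183 and 188 with GSK215 and 212, 211 and 215 with BSJ-04-146. The libraries of defactinib, GSK2256098, BSJ-04-146 and VS-4718 overlapped their neighbours in the order of levels, just below DMSO, and PROTAC FAK Degrader 1 was highest. With GSK2256098 *Hk1* had -0.074 (adjusted *P* = 0.17, or 0.024 with only the 6 libraries of the comparison) and with defactinib -0.081 (adjusted *P* = 0.093). The fall was largest with GSK215 (-0.32 ± 0.036, adjusted *P* = 5.4e-10), though -0.20 with library totals, and the rise with PROTAC FAK Degrader 1 reached 136% of DMSO (adjusted *P* = 1.3e-14). The change with BSJ-04-146 (-0.10, adjusted *P* = 0.012) was lost with scaling by library totals, at 0.0051 and adjusted *P* = 0.91 where the median of all genes moved to 0.13, and without DMSO replicate 2 (adjusted *P* = 0.055). The change with VS-4718 (-0.11) was also lost with library totals (adjusted *P* = 0.076).

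*Hk2* was measured at 193, 189 and 189 CPM with DMSO, 159, 160.0 and 173 with defactinib, 119.9, 123 and 125 with VS-4718, 162, 168 and 164 with GSK2256098 and 213, 215 and 209 with ifebemtinib. *Hk2* stood at 194, 198 and 186 CPM with PROTAC FAK Degrader 1, 90.5, 91.9 and 94.3 with GSK215 and 76.7, 79.2 and 85.8 with BSJ-04-146. Every library of the 6 drugs other than PROTAC FAK Degrader 1 was outside the DMSO range, and the 3 libraries of BSJ-04-146 were below those of GSK215. *Hk2* fell to 42.3% of DMSO with BSJ-04-146 (-1.24 ± 0.038, adjusted *P* = 8.8e-27) and to 48.5% with GSK215 (-1.04 ± 0.037, adjusted *P* = 1.2e-24). PROTAC FAK Degrader 1 left an estimate of 0.018 with a 95% interval of -0.051 to 0.088, and with library totals alone the estimate was 0.10 (adjusted *P* = 0.011). Within a library the log2 ratio of *Hk2* to *Hk1* changed by -1.14 with BSJ-04-146, -0.72 with GSK215, -0.52 with VS-4718, -0.43 with PROTAC FAK Degrader 1, -0.14 with defactinib and -0.13 with GSK2256098. In each of these the libraries did not overlap DMSO, and the exact two-sided permutation *P* was 0.10, the smallest that 3 against 3 libraries allow. By RPKM, the share of *Hk1* in the pair went from 45.6 ± 0.542% with DMSO to 64.9 ± 1.14% with BSJ-04-146, as *Hk2* fell more than *Hk1*. With the longest transcript in place of all exons this share was 60.7% with DMSO and 77.3% with BSJ-04-146, so *Hk1* was then the larger part in both. The ratio with ifebemtinib changed by -0.079 and its libraries overlapped DMSO.

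**Figure D2:**
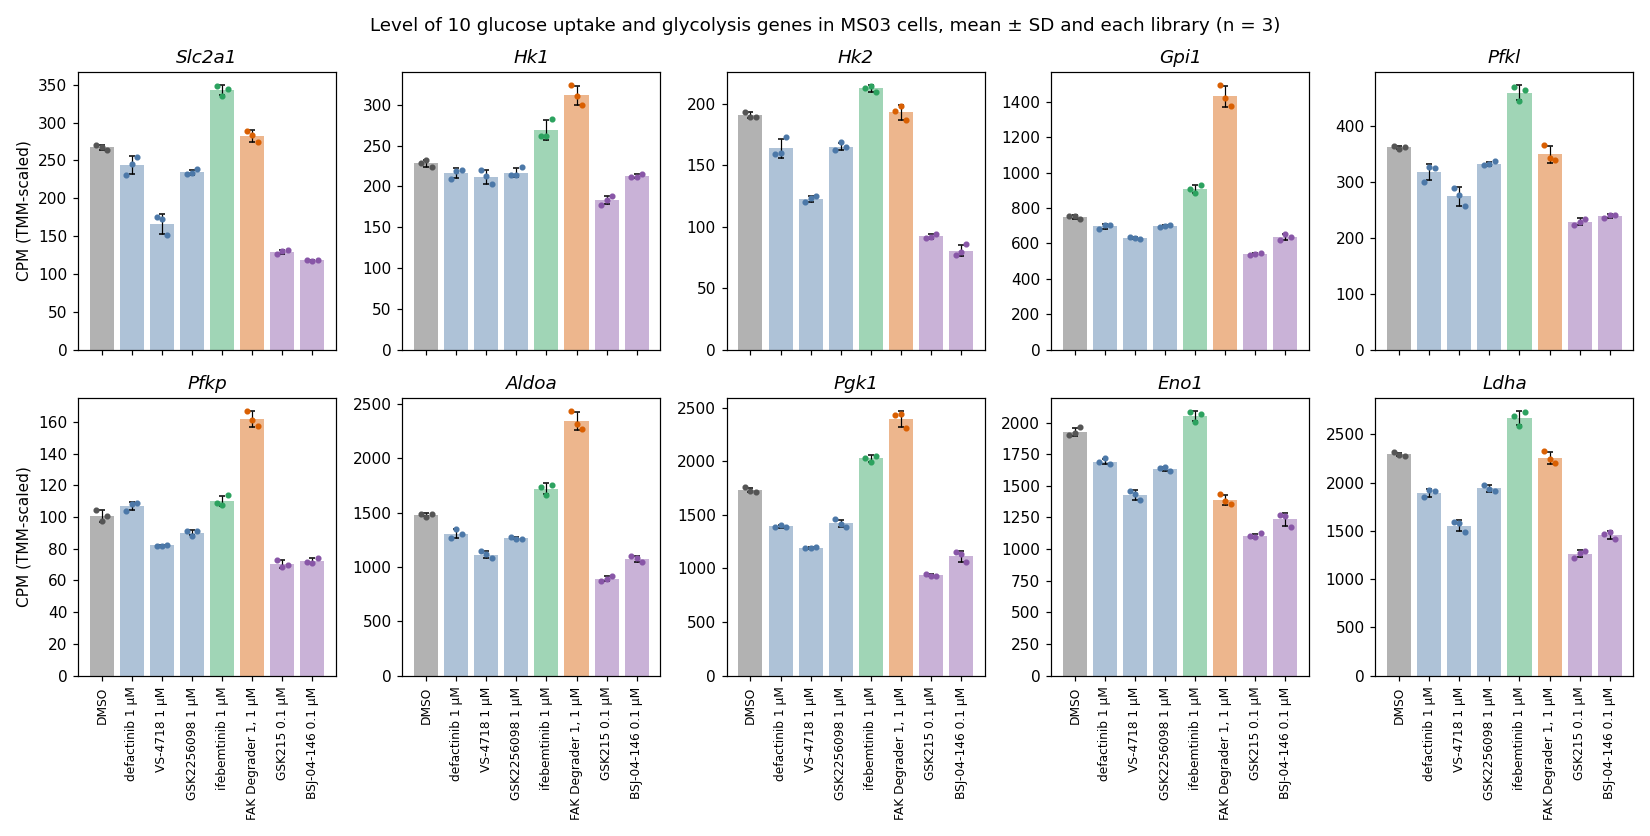
Level of the 10 genes in each of the 24 libraries, in CPM after TMM scaling, with treatment and dose on the x axis; bars are means, error bars SD over 3 libraries, points the libraries, and every y axis starts at 0. The bars of Slc2a1 and Hk2 drop below those of DMSO most for GSK215 and BSJ-04-146, and Gpi1 reaches 1430.3 ± 58.6 CPM with PROTAC FAK Degrader 1 against 750.0 ± 10.5 with DMSO.

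*Gpi1* (ENSMUSG00000036427, chr7:34201330-34230336, minus strand) converts glucose 6-phosphate to fructose 6-phosphate, the branch point towards the pentose phosphate pathway, and had the largest rise of the 10 genes. *Gpi1* was measured at 756, 756 and 738 CPM with DMSO, 681, 704 and 706 with defactinib, 639, 631 and 627 with VS-4718, 692, 696 and 706 with GSK2256098 and 907, 883 and 929 with ifebemtinib. *Gpi1* stood at 1494, 1419 and 1378 CPM with PROTAC FAK Degrader 1, 536, 540.4 and 546 with GSK215 and 622, 652 and 635 with BSJ-04-146. PROTAC FAK Degrader 1 lay far above all other groups, and the GSK215 libraries were lowest. *Gpi1* rose to 191% of DMSO with PROTAC FAK Degrader 1 (0.93 ± 0.030, adjusted *P* = 2.6e-26) and to 121% with ifebemtinib, and fell to 72.1% with GSK215. Its fall with BSJ-04-146 (-0.24) was -0.13 with library totals. The falls with defactinib (-0.11) and GSK2256098 (-0.10) were small (adjusted *P* = 0.0092 and 0.019) and lost their calls when single libraries were left out. Adjusted *P* reached 0.054 without defactinib replicate 1, and 0.061 and 0.069 for GSK2256098 without DMSO replicates 1 and 2, and 0.055 and 0.057 without GSK2256098 replicates 1 and 2.

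Phosphofructokinase makes fructose 1,6-bisphosphate, the committed step, from subunits encoded by *Pfkl* (liver type, ENSMUSG00000020277, chr10:77986947-78010083, minus strand), *Pfkp* (platelet type, ENSMUSG00000021196, chr13:6579768-6648777, minus strand) and *Pfkm* (muscle type). *Pfkl* ranged over 359.9 to 365 CPM with DMSO, 301 to 327 with defactinib, 257 to 290.1 with VS-4718, 329.8 to 337 with GSK2256098, 445 to 469.9 with ifebemtinib, 339 to 367 with PROTAC FAK Degrader 1, 223 to 234 with GSK215 and 236 to 242 with BSJ-04-146. Only PROTAC FAK Degrader 1 overlapped DMSO. *Pfkl* fell with GSK215 (-0.66 ± 0.037, adjusted *P* = 3.3e-18) and BSJ-04-146 (-0.60), and rose with ifebemtinib (0.34). The smaller fall with GSK2256098 (-0.12, adjusted *P* = 0.02) was lost without DMSO replicate 1 (adjusted *P* = 0.06) and without GSK2256098 replicate 1 (adjusted *P* = 0.058) or 2 (adjusted *P* = 0.059).

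*Pfkp* was measured at 105, 97.3 and 100.4 CPM with DMSO, 104, 108 and 109 with defactinib, 81.9, 81.9 and 82.6 with VS-4718, 90.9, 88.3 and 91.1 with GSK2256098 and 109, 108 and 114 with ifebemtinib. *Pfkp* stood at 167, 161 and 157 CPM with PROTAC FAK Degrader 1, 72.9, 68.5 and 69.8 with GSK215 and 71.8, 71.1 and 74.3 with BSJ-04-146. The order differed from that of *Pfkl*, with PROTAC FAK Degrader 1 alone at the top and the defactinib libraries overlapping those of DMSO. *Pfkp* rose to 161% of DMSO with PROTAC FAK Degrader 1 (0.68 ± 0.034, adjusted *P* = 2.9e-20), while *Pfkl* had -0.052 with an interval of -0.13 to 0.022. The log2 ratio of *Pfkl* to *Pfkp* changed by -0.74 (exact permutation *P* = 0.10). It changed by -0.28 with defactinib, 0.21 with ifebemtinib, -0.15 with GSK215, -0.12 with BSJ-04-146, -0.11 with VS-4718 and 0.038 with GSK2256098, and the libraries of VS-4718 and GSK2256098 overlapped DMSO. With defactinib *Pfkp* had 0.086 (adjusted *P* = 0.074), which passed without DMSO replicate 1 (0.11, adjusted *P* = 0.047) and with library totals (adjusted *P* = 0.024). The rise with ifebemtinib (0.13, adjusted *P* = 0.0098) was lost without DMSO replicate 2 (adjusted *P* = 0.092) or ifebemtinib replicate 3 (adjusted *P* = 0.087). *Pfkm* rose with PROTAC FAK Degrader 1 (0.52) and with BSJ-04-146 (0.24, adjusted *P* = 3.0e-08), and its log2 ratio to *Pfkl* changed by 0.84 with BSJ-04-146, 0.69 with GSK215, 0.57 with PROTAC FAK Degrader 1, 0.42 with VS-4718, 0.13 with GSK2256098, 0.061 with defactinib and -0.21 with ifebemtinib.

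The genes of the middle of the pathway moved together with each drug. *Aldoa* (ENSMUSG00000030695, chr7:126795234-126800751, minus strand) is the aldolase that splits the sugar into triose phosphates, and *Pgk1* (ENSMUSG00000062070, chrX:106187100-106203699, plus strand) is the kinase of the first ATP-yielding step. *Aldoa* ranged over 1465 to 1493 CPM with DMSO, 1268 to 1350.2 with defactinib, 1257 to 1280.2 with GSK2256098, 1666 to 1759 with ifebemtinib, 2273 to 2435 with PROTAC FAK Degrader 1, 1084 to 1143 with VS-4718, 1044 to 1099 with BSJ-04-146 and 872 to 916 with GSK215. *Pgk1* ranged over 1716 to 1755 CPM with DMSO, 1382 to 1408 with defactinib, 1389 to 1457 with GSK2256098, 1994 to 2052 with ifebemtinib, 2307 to 2439 with PROTAC FAK Degrader 1, 1186 to 1204 with VS-4718, 1058 to 1153 with BSJ-04-146 and 932 to 947 with GSK215. For both genes every drug group was apart from DMSO, PROTAC FAK Degrader 1 was highest and GSK215 lowest. *Aldoa* rose to 158% of DMSO with PROTAC FAK Degrader 1 (0.66 ± 0.032, adjusted *P* = 5.9e-21) and fell to 60.2% with GSK215 (-0.73 ± 0.032, adjusted *P* = 9.1e-22). *Pgk1* rose to 138% with PROTAC FAK Degrader 1 and 117% with ifebemtinib and fell to 54.1% with GSK215 (-0.89 ± 0.030, adjusted *P* = 5.5e-25), and it was the gene of the 10 that defactinib lowered most (-0.32, adjusted *P* = 4.0e-10). The neighbouring enzymes *Tpi1* and *Gapdh* had log2 fold changes of -0.73 and -0.85 with GSK215 and 0.38 and 0.60 with PROTAC FAK Degrader 1, all past the test.

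*Eno1* (ENSMUSG00000063524, chr4:150236721-150248879, plus strand), the enolase that makes phosphoenolpyruvate, parted from *Aldoa* and *Pgk1* with PROTAC FAK Degrader 1. *Eno1* was measured at 1899, 1915 and 1962 CPM with DMSO, 1689, 1717 and 1671 with defactinib, 1459, 1435 and 1385 with VS-4718, 1638, 1648 and 1614 with GSK2256098 and 2079.7, 2004 and 2066 with ifebemtinib. *Eno1* stood at 1433, 1383 and 1353 CPM with PROTAC FAK Degrader 1, 1101, 1094 and 1125 with GSK215 and 1267, 1261 and 1176 with BSJ-04-146. The PROTAC FAK Degrader 1 libraries lay below all DMSO libraries and overlapped those of VS-4718, and GSK215 was lowest. *Eno1* fell to 72.2% of DMSO with PROTAC FAK Degrader 1 (-0.47 ± 0.030, adjusted *P* = 7.7e-17) and to 57.5% with GSK215 (adjusted *P* = 1.7e-23). Its rise with ifebemtinib was small (0.090, adjusted *P* = 0.041), and was lost without the filter on low counts (adjusted *P* = 0.065), with limma-trend (0.073), with thinned libraries (0.06), without any 1 of the DMSO replicates 1, 2 or 3 (adjusted *P* = 0.15, 0.12 and 0.055), and without ifebemtinib replicate 1 (0.17) or 3 (0.13). *Eno1b*, a near-identical copy of *Eno1* with 368 ± 5.70 CPM in DMSO, had -0.36 with PROTAC FAK Degrader 1 and -0.74 with GSK215, and how reads were divided between these copies is not given in the sources used here, so the level of either is uncertain. *Pgam1*, the mutase just before enolase, also fell with PROTAC FAK Degrader 1 (-0.36, adjusted *P* = 2.1e-12), whereas the enolase isoenzyme *Eno2* rose (1.41, adjusted *P* = 1.2e-30) from 77.2 ± 0.838 to 205 ± 4.25 CPM and fell with VS-4718 (-1.09).

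*Ldha* (ENSMUSG00000063229, chr7:46841475-46855627, plus strand) encodes the lactate dehydrogenase subunit that favours lactate formation. *Ldha* was measured at 2313, 2285 and 2281 CPM with DMSO, 1849.8, 1923 and 1914 with defactinib, 1594, 1584 and 1488 with VS-4718, 1979, 1931 and 1914 with GSK2256098 and 2693, 2591 and 2728 with ifebemtinib. *Ldha* stood at 2325, 2244 and 2199 CPM with PROTAC FAK Degrader 1, 1223, 1269 and 1294 with GSK215 and 1465, 1494 and 1413 with BSJ-04-146. PROTAC FAK Degrader 1 overlapped DMSO, ifebemtinib was above it and the other 5 drugs below it. *Ldha* fell to 55.0% of DMSO with GSK215 (-0.86 ± 0.032, adjusted *P* = 3.7e-24), to 63.6% with BSJ-04-146 and to 67.8% with VS-4718, and rose to 116% with ifebemtinib (adjusted *P* = 4.2e-06). With PROTAC FAK Degrader 1 the estimate was -0.024 with an interval of -0.087 to 0.040. *Ldhb*, the subunit of the heart form, rose with GSK215 (0.41), BSJ-04-146 (0.48) and PROTAC FAK Degrader 1 (0.47). The log2 ratio of *Ldha* to *Ldhb* changed by -1.27 with GSK215, -1.13 with BSJ-04-146, -0.56 with VS-4718, -0.49 with PROTAC FAK Degrader 1, -0.18 with GSK2256098, -0.18 with defactinib and 0.16 with ifebemtinib. None of these 7 groups overlapped DMSO, with an exact permutation *P* of 0.10 each. *Pkm*, the pyruvate kinase, had -0.50 with GSK215, -0.18 with BSJ-04-146 and 0.33 with PROTAC FAK Degrader 1.

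**Figure D3:**
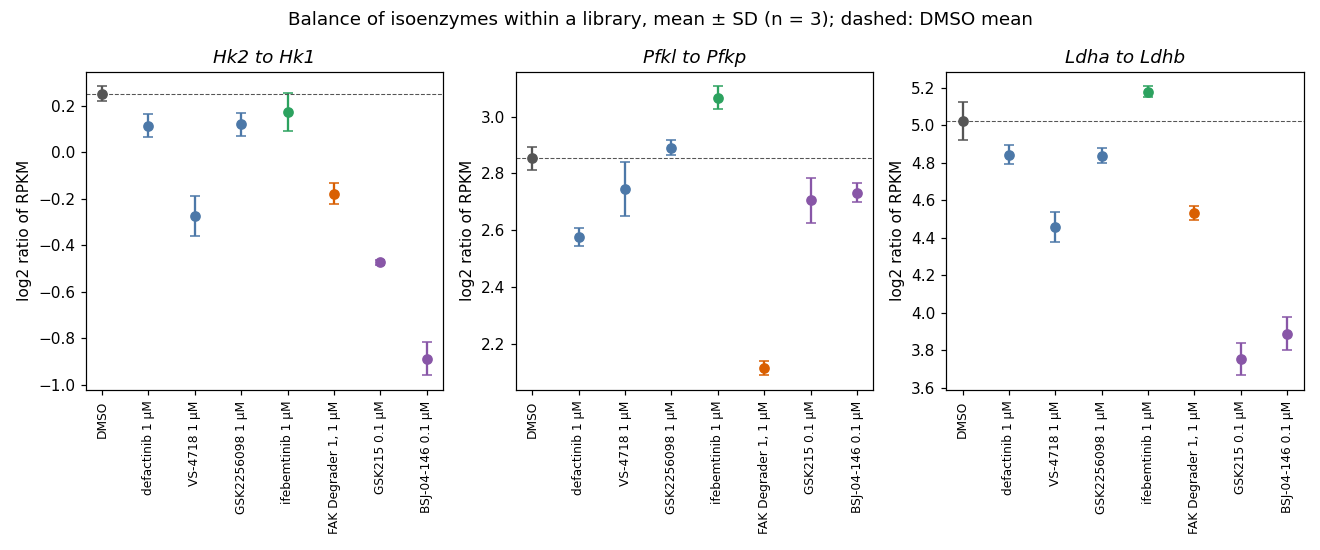
Log2 ratio of the RPKM of 2 isoenzymes within a library, by treatment, for the hexokinases, phosphofructokinases and lactate dehydrogenases; points are means and bars SD over 3 libraries, and the dashed line is the DMSO mean. Hk2 to Hk1 changed most with BSJ-04-146 (-1.14), Pfkl to Pfkp with PROTAC FAK Degrader 1 (-0.74) and Ldha to Ldhb with GSK215 (-1.27).

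Of the 18 other enzymes and isoenzymes of these steps, 11 were tested and 7, among them *Pklr* and *Pgk2*, had at most 8 counts in any library. With GSK215 2 higher and 5 lower (median -0.19) were called, the median being that of the log2 fold changes of the tested genes of a list, and with BSJ-04-146 3 higher and 5 lower (median -0.18). The counts were 6 higher and 0 lower (median 0.19) with ifebemtinib, 6 higher and 2 lower (median 0.33) with PROTAC FAK Degrader 1, 1 higher and 7 lower (median -0.15) with defactinib, 1 higher and 5 lower (median -0.17) with VS-4718 and 0 higher and 4 lower (median -0.063) with GSK2256098. Among all genes tested 27.4% higher and 27.2% lower were called with GSK215, 27.7% higher and 26.9% lower with BSJ-04-146, 6.44% higher and 6.85% lower with ifebemtinib and 34.1% higher and 32.7% lower with PROTAC FAK Degrader 1. These shares were 11.4% higher and 11% lower with defactinib, 20.4% higher and 18.9% lower with VS-4718 and 6.36% higher and 6.09% lower with GSK2256098. *Tpi1*, *Gapdh*, *Pgam1* and *Pkm*, which act at the steps that none of the 10 genes covers, fell with GSK215, BSJ-04-146, VS-4718 and defactinib and rose with ifebemtinib, all past the test. *Pfkm* (0.026) and *Eno3* (-0.024) did not pass with GSK215. Of 6 near-identical copies of the 10 genes 3 were tested, with 0 higher and 2 lower (median -0.74) for GSK215 and 1 higher and 1 lower (median 0.64) for PROTAC FAK Degrader 1.

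**Figure D4:**
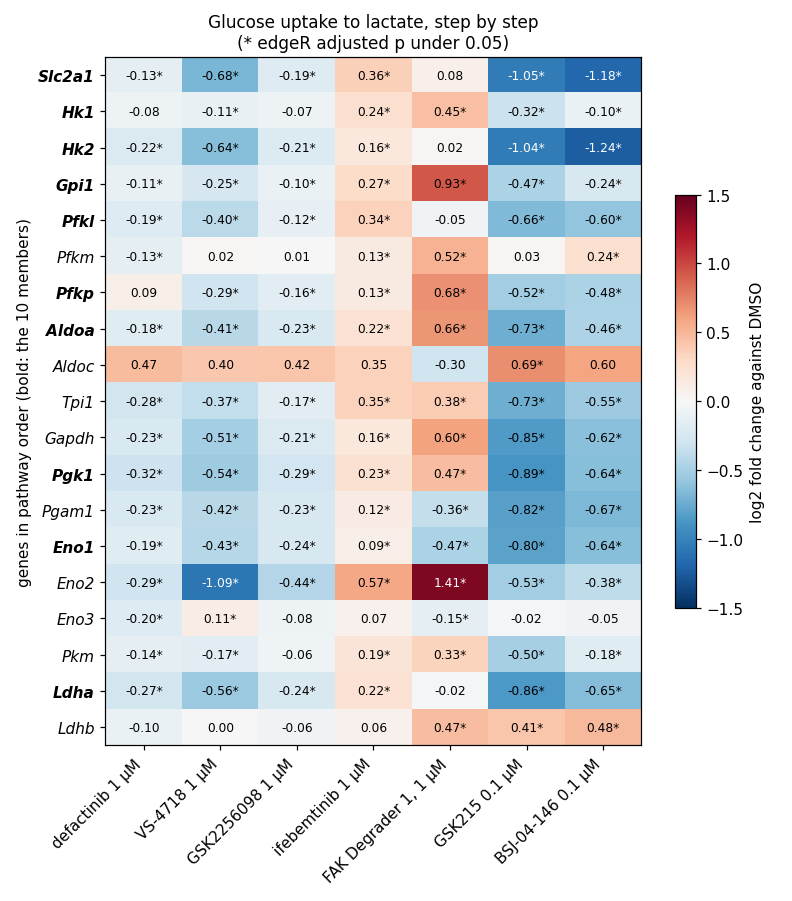
Log2 fold change against DMSO of the 10 genes (bold) and of 9 further genes of the same steps, from glucose uptake (top) to lactate dehydrogenase (bottom), with 1 column per drug; blue is lower and red higher than DMSO, and an asterisk marks an edgeR adjusted P under 0.05. In the PROTAC FAK Degrader 1 column Pgam1 (-0.36) and Eno1 (-0.47) are blue below Pgk1 (0.47), and Eno2 (1.41), Pkm (0.33) and Ldhb (0.47) are red again.

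Drugs were then set against each other where their doses matched, as 10 pairs at 1 μM and 1 pair at 0.1 μM, with *P* values adjusted over all genes and all 11 pairs. Defactinib and GSK2256098 were closest. Only *Pfkp* differed between them, lower with GSK2256098 by a log2 difference of -0.25 (95% interval -0.32 to -0.17, adjusted *P* = 2.3e-07). Of all 16070 genes 8.6% were lower and 1499 genes were higher, so the count of lower glycolysis genes was near its share. For the other 9 genes the intervals lay between -0.13 and 0.14, which does not show that these drugs act alike. With VS-4718 9 genes were lower than with defactinib, against 16.7% of all genes, most for *Slc2a1* (-0.55, -0.63 to -0.48) and *Hk2* (-0.42), whereas *Hk1* had -0.030 with an interval of -0.10 to 0.041. GSK2256098 was above VS-4718 in 9 genes, against 14.3% of all genes, with *Hk1* at 0.036 (-0.034 to 0.11). In that pair 2299 genes were called higher and 2522 lower, or 1856 and 3135 with library totals, where the same count of 9 was found.

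Ifebemtinib stood above each of the other inhibitors at the same dose. It was higher in 9 genes than defactinib (background 18.8%), in 10 than VS-4718 (19.8%) and in 10 than GSK2256098 (11.9%). The largest difference was that of *Slc2a1* from VS-4718, at 1.04 (0.97 to 1.12, adjusted *P* = 2.0e-24), and the 1 gene that did not pass was *Pfkp* against defactinib, at 0.045 (-0.027 to 0.12). PROTAC FAK Degrader 1 was higher than defactinib in 9 genes (background 33.8%) and lower in *Eno1* (background 32.8%). It was higher than VS-4718 in 9 (33.4%), with *Eno1* at -0.038 (-0.099 to 0.024). Against GSK2256098 it was higher in 8 (33%), lower in *Eno1* (32.5%) and at 0.071 for *Pfkl*, a difference that passed with library totals (0.14, adjusted *P* = 8.8e-04) and without PROTAC FAK Degrader 1 replicate 3 (adjusted *P* = 0.042). Against ifebemtinib the 10 genes split evenly, with *Hk1*, *Gpi1*, *Pfkp*, *Aldoa* and *Pgk1* higher (background 31.4%) and *Slc2a1*, *Hk2*, *Pfkl*, *Eno1* and *Ldha* lower (30%), from 0.66 for *Gpi1* to -0.56 for *Eno1*. The difference in *Hk2* (-0.14) was lost with library totals (adjusted *P* = 0.14).

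At 0.1 μM BSJ-04-146 and GSK215 differed in 8 of the 10 genes. *Slc2a1* (-0.13, -0.22 to -0.046, adjusted *P* = 0.01) and *Hk2* (-0.20, -0.28 to -0.11, adjusted *P* = 1.0e-04) were lower with BSJ-04-146, where 11.3% of all genes were lower. *Hk1*, *Gpi1*, *Aldoa*, *Pgk1*, *Eno1* and *Ldha* were higher with BSJ-04-146, where 14.5% of all genes were, by 0.16 for *Eno1* to 0.27 for *Aldoa* (0.21 to 0.33, adjusted *P* = 2.8e-09). *Pfkl* (0.067, -0.011 to 0.14) and *Pfkp* (0.042, -0.039 to 0.12) did not pass the test. Since PROTAC FAK Degrader 1 was used at a higher dose, its values stand beside these without a comparison.

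Across all 24 libraries the levels of the 10 genes were positively correlated in each of the 45 pairs, as a description over libraries that share treatments, with Pearson's r of log2 CPM from 0.30 (*Gpi1* and *Eno1*) to 0.99 (*Slc2a1* and *Hk2*) and a median of 0.86. A mean of at least 5 CPM was reached by 10279 genes, the 10 included. Among the others of these, those most like *Aldoa* and *Pgk1* were led by *Gapdh* (r = 0.993 and 0.989, 24 libraries). Next came *Cdkn1a* and *Higd1a* for *Pgk1* and *Gm13394* and *Got1* for *Aldoa*. *Eno1* was most like its copy *Eno1b* (0.990), *Pgam1* and *Maff*. *Pfkp* was most like *Nars* (0.995), *Asns* and *Sesn2*, and *Gpi1* like *Kif21b* (0.989), *Atf3* and *Pgm2*. *Slc2a1* was most like *P4ha2* (0.975), *Gls2* and *Siah2*, *Hk2* like *Pabpc4*, *Cct2* and *Gls2*, and *Hk1* like *Fau*, *Fam162a* and *Rps14*. *Pfkl* was most like *Galk1*, *Rcor2* and *Map2k1*, and *Ldha* like *Hmga1b*, *Eif3i* and *Bhlhe40*, with r from 0.96 to 0.99 over these genes.

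Genes that set the flux or carry its products were counted beside the 10. Of 10 regulators of glycolytic flux, all tested, 3 higher and 5 lower (median -0.18) were called for GSK215, 4 higher and 5 lower (median -0.23) for BSJ-04-146 and 2 higher and 6 lower (median -0.43) for PROTAC FAK Degrader 1. The shares over all genes were 27.4% higher and 27.2% lower with GSK215, 27.7% higher and 26.9% lower with BSJ-04-146 and 34.1% higher and 32.7% lower with PROTAC FAK Degrader 1, so the count of higher regulators with GSK215 was near its share. *Pfkfb3*, which makes the activator of phosphofructokinase, fell with BSJ-04-146 (-1.19, adjusted *P* = 1.3e-19), GSK215 (-1.07) and PROTAC FAK Degrader 1 (-0.43). *Txnip*, an arrestin that promotes internalization of GLUT1, rose with BSJ-04-146 (1.52), GSK215 (1.47) and most with PROTAC FAK Degrader 1 (2.49, adjusted *P* = 2.5e-34). *Pgp*, a phosphatase that removes side products of the pathway, fell with PROTAC FAK Degrader 1 (-1.01) and GSK215 (-0.65).

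Of 7 transporters of lactate and pyruvate and their chaperone 6 were tested, with 1 higher and 4 lower (median -0.31) for GSK215 and 5 higher and 1 lower (median 0.28) for PROTAC FAK Degrader 1, where 27.4% higher and 27.2% lower of all genes were called with GSK215 and 34.1% higher and 32.7% lower with PROTAC FAK Degrader 1. The monocarboxylate transporter *Slc16a1* (MCT1) fell with PROTAC FAK Degrader 1 (-1.06, adjusted *P* = 1.0e-24), BSJ-04-146 (-0.69) and ifebemtinib (-0.26), while the lactate exporter *Slc16a3* (MCT4) fell with BSJ-04-146 (-0.91) and rose with ifebemtinib (0.60). *Mpc2*, a subunit of the mitochondrial pyruvate carrier, rose with PROTAC FAK Degrader 1 (0.41). Around pyruvate dehydrogenase, which sends pyruvate into the mitochondrial cycle, 10 of 11 genes were tested, with 1 higher and 9 lower (median -0.33) for GSK215 and 8 higher and 1 lower (median 0.26) for PROTAC FAK Degrader 1, beside these same shares of 27.4% higher and 27.2% lower and 34.1% higher and 32.7% lower. Its inhibitory kinase *Pdk1* had log2 fold changes of -0.76 for GSK215, -0.90 for VS-4718, 0.70 for ifebemtinib and 1.26 for PROTAC FAK Degrader 1, whereas the kinase *Pdk2* rose with all 3 PROTACs (1.11, 1.14 and 1.86). The phosphatase *Pdp2*, which reactivates the complex, fell with all 3 (-0.91, -0.78 and -0.69).

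Target genes of HIF that lie outside glycolysis were counted because HIF is known to induce both groups. Like the other lists, this one was chosen with earlier results of these data known. Whether HIF had a part in the changes was not tested. All 12 were tested, with 12 higher and 0 lower (median 0.44) for ifebemtinib, 10 higher and 1 lower (median 0.61) for PROTAC FAK Degrader 1 and 0 higher and 11 lower (median -0.58) for VS-4718. The counts were 1 higher and 11 lower (median -0.66) for GSK215, 0 higher and 10 lower (median -0.71) for BSJ-04-146, 0 higher and 9 lower (median -0.19) for GSK2256098 and 1 higher and 5 lower (median -0.11) for defactinib. Over all genes the shares differed by drug, with 6.44% higher and 6.85% lower for ifebemtinib, 34.1% higher and 32.7% lower for PROTAC FAK Degrader 1 and 20.4% higher and 18.9% lower for VS-4718. They were 27.4% higher and 27.2% lower for GSK215, 27.7% higher and 26.9% lower for BSJ-04-146, 6.36% higher and 6.09% lower for GSK2256098 and 11.4% higher and 11% lower for defactinib. *Ndrg1*, a stress-responsive gene, rose most with PROTAC FAK Degrader 1 (2.53, adjusted *P* = 4.9e-37) and ifebemtinib (0.93) and fell with GSK215 (-0.84). *Ankrd37* rose with PROTAC FAK Degrader 1 (1.57) and fell with BSJ-04-146 (-1.63), and *Adm*, the vasodilator adrenomedullin, fell with PROTAC FAK Degrader 1 (-0.57) as well as GSK215 (-1.58). With PROTAC FAK Degrader 1 the median over these 12 genes was 0.61 and that over the 10 glycolysis genes 0.26.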

How the data were processed

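RNA of MS03 cells was sequenced in 24 libraries after poly(A) selection (NEBNext Ultra II). The deposited values are unnormalized counts of reads for each Ensembl gene, as the authors' counting step gave them. The submitters' processing notes name Trimmomatic 0.36, STAR 2.5.2b, featureCounts of Subread 1.5.2 and GRCm38, and strand and multi-mapping settings are not given in the sources used here. No column of another sample was in the table. Replicates differed by more than counting noise (chi-square per degree of freedom 1.73 to 8.62), so none was counted as a copy.

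Tests used edgeR 4.0.16 under R 4.3.3 (TMM, filterByExpr, glmQLFit and glmQLFTest, 8 groups in 1 model, 16 residual degrees of freedom), two-sided, with Benjamini-Hochberg adjustment over 16070 genes and a threshold of 0.05. Each standard error is the log2 change over the root of its F value. CPM and RPKM were computed here, lengths and coordinates being those of GENCODE M21, and promoters those of RefSeq. Alternatives were DESeq2 1.42.0, library totals, no filter, a replicate block, only 6 libraries, limma-trend (limma 3.58.1) on log2(CPM + 4), thinned libraries and leaving out each library. Scripts were tested on simulated data. Members and lists were chosen with earlier results of these data known. All 10 members were named, and of each other list the 3 genes with the largest significant change and at least 5 CPM, plus enzymes of the same steps and, for each member, the 3 most correlated genes.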

Additional observations from a re-analysis of the deposited data

How the results depend on the processing

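Of the 70 results of 10 genes and 7 drugs, 7 other settings gave 490 values, of which 477 kept direction and call, 3 reversed, 4 lost the call and 6 gained it, and leaving out single libraries gave 420 values, of which 17 lost the call and 2 gained it. The 110 results of matched pairs kept direction and call in 761 of 770 alternatives and 652 of 660 omissions. Scaling by library totals moved the median of all genes to 0.14 with GSK215 and 0.13 with BSJ-04-146. It reversed *Pfkl* (0.030) and *Ldha* (0.058) with PROTAC FAK Degrader 1 and *Hk1* with BSJ-04-146 (0.0051), *Gpi1* between GSK2256098 and defactinib (-0.0027) and *Eno1* between PROTAC FAK Degrader 1 and VS-4718 (0.0063), and raised the number of genes higher with defactinib from 0 to 1. That number was 0 to 1 over omissions of single libraries. Other reversals were confined to differences near 0 between GSK2256098 and defactinib, for *Gpi1* with only 6 libraries (-0.00035), thinned libraries (-0.00078) and DESeq2 (-0.0022), and for *Hk1* (-0.014) and *Hk2* (-6.0e-05) with thinned libraries. Over omissions that difference ranged from -0.017 to 0.021 for *Hk1*, from -0.012 to 0.050 for *Hk2* and from -0.015 to 0.011 for *Gpi1*. For these reversals the cause was not tested. The number of genes lower with GSK2256098 ranged from 7 to 9, with defactinib from 6 to 8 and with BSJ-04-146 from 9 to 10 over omissions. The number higher with ifebemtinib was 8 to 10 over omissions and 9 to 10 over settings, and that with PROTAC FAK Degrader 1 was 5 to 6 and 5 to 7. Replicate numbers did not pair the libraries, since deviations of same-numbered libraries correlated at a median of -0.0028 (-0.20 to 0.13, 2 of 84 above 0.1). Libraries with other numbers correlated at a median of 0.0014 (-0.21 to 0.35, 9 of 168 above 0.1). The replicate block left all 63 drug calls and 94 pair calls, changing 0. A batch that does not follow the replicate numbers was not tested. The depth of 14472462 counts or more left at least 1111 counts per gene, and 3 libraries per group limit exact tests to *P* = 0.10.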

Other observations

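All 9 genes of the pentose phosphate pathway, which draws on glucose 6-phosphate for NADPH and ribose, were tested, with 3 higher and 5 lower (median -0.081) for PROTAC FAK Degrader 1, 1 higher and 6 lower (median -0.26) for GSK215, 2 higher and 3 lower (median -0.021) for BSJ-04-146 and 3 higher and 1 lower (median 0.015) for VS-4718 by edgeR's test. Of all genes tested 34.1% higher and 32.7% lower were called with PROTAC FAK Degrader 1, 27.4% higher and 27.2% lower with GSK215, 27.7% higher and 26.9% lower with BSJ-04-146 and 20.4% higher and 18.9% lower with VS-4718, so that several of these counts were near the background. *Pgd*, the second dehydrogenase of the oxidative branch, fell with PROTAC FAK Degrader 1 (-0.82), *Tkt*, a transketolase of the non-oxidative branch, rose (0.63), and the isomerase *Rpia* fell with BSJ-04-146 (-0.74) and GSK215 (-0.67).

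Of 16 genes of gluconeogenesis and glycogen 11 were tested, with 9 higher and 0 lower (median 0.72) for PROTAC FAK Degrader 1, 6 higher and 0 lower (median 0.16) for ifebemtinib and 2 higher and 6 lower (median -0.42) for GSK215, while *Pck1*, *G6pc*, *Fbp1*, *Fbp2* and *Pygl* had at most 4 counts in any library. Of all genes 34.1% higher and 32.7% lower were called with PROTAC FAK Degrader 1, 6.44% higher and 6.85% lower with ifebemtinib and 27.4% higher and 27.2% lower with GSK215. *Pck2*, the mitochondrial phosphoenolpyruvate carboxykinase, rose with PROTAC FAK Degrader 1 (1.81, adjusted *P* = 2.5e-34) and defactinib (0.58) and fell with VS-4718 (-1.16). *Gbe1*, the glycogen branching enzyme, rose with PROTAC FAK Degrader 1 (1.42) and fell with GSK215 (-0.64), and pyruvate carboxylase *Pcx* rose with PROTAC FAK Degrader 1 (1.27), BSJ-04-146 (0.56) and GSK215 (0.54).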
